A study of Mus musculus with 90 samples.

Results

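The hemoglobin and erythroid genes are the 6 genes Hba-a1, Hba-a2, Hbb-bs, Hbb-bt, Alas2 and Slc4a1, out of the 20414 genes listed for the study, and they were chosen by name, each taken from the row with its Entrez Gene identifier. The identifiers are 15122 for Hba-a1, 110257 for Hba-a2, 100503605 for Hbb-bs, 101488143 for Hbb-bt, 11656 for Alas2 and 20533 for Slc4a1. All 6 were listed in all 90 libraries. The libraries are RNA-seq libraries of 15 tissues from wildtype female C57BL/6 mice, aged 10 weeks by the labels, in estrus or in diestrus. Each tissue has 3 libraries from each phase. The study's methods name the strain as C57BL/6J and give a younger age than the labels. By the study, 3 mice per phase gave all 15 tissues, so that libraries of different tissues share animals, and the labels do not say which. By the study's methods, the phase was read from stained vaginal smears taken daily, and serum estrogen and progesterone of mice were measured as an aid. No treatment was given. The 2 phases are the only difference between the groups that the labels give, and whether the animals were perfused before dissection is not given in the sources used here. Levels are FPKM, in which fragment counts are divided by transcript length and by the size of the library. It is a scale per length, so that levels of different genes can be set beside each other.

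Adult hemoglobin is a tetramer of alpha and beta globin chains with heme, and it is made in erythroid precursors, which in the adult mouse sit in the bone marrow and also in the red pulp of the spleen. Young red cells (reticulocytes) still carry globin mRNA after they have lost the nucleus, so that blood left in a dissected tissue brings globin transcripts into its library. Hba-a1 and Hba-a2 are the duplicated adult alpha globin genes, and Hbb-bs and Hbb-bt are the adult beta globin genes of the C57BL/6 haplotype. Alas2 codes for the erythroid form of 5-aminolevulinate synthase, the first enzyme of heme synthesis. Slc4a1 codes for band 3, the anion exchanger of the red cell membrane, which is also known from acid-secreting cells of the kidney collecting duct.

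The stretches just before the transcription start are shown for the 5 genes that the RefSeq table of GRCm38.p6 holds, to show how alike the paralogs are there. They lie outside the transcripts, so they do not bear on how reads were shared between the rows. Each is the last 120 bases before the start, read along the gene's strand. Capitals mark the motif CCAAT, the motif CACCC, the motif GATA and the motif TATAA on either strand. In Hbb-bt 2 CCAAT on opposite strands adjoin each other, and no other marked motifs overlap.
Hba-a1 (chr11:32283552-32283671, plus strand): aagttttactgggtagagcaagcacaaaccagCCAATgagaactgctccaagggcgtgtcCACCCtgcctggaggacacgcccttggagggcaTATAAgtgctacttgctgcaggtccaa
Hba-a2 (chr11:32296372-32296491, plus strand): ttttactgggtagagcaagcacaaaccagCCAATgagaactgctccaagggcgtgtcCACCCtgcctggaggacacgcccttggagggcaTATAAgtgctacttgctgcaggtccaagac
Hbb-bs (chr7:103827929-103828048, minus strand): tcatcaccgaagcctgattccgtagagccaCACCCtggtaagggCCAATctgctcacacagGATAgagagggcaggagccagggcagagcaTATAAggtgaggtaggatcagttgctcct
Hbb-bt (chr7:103813924-103814043, minus strand): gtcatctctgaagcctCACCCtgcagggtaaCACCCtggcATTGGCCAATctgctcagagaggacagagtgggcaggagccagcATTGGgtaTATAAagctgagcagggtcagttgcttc
Alas2 (chrX:150547297-150547416, plus strand): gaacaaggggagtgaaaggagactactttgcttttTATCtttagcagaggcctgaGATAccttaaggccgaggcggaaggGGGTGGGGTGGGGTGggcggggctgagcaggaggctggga

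The alpha globin stretches were the same sequence, shifted by 3 bases, with 117 of 117 compared bases identical. The beta globin stretches matched at 88 of 119 bases, or 73.9%, at a shift of 1 base. CCAAT and TATAA lay in the 4 globin stretches and not in that of Alas2. CACCC lay in all 5, and GATA in those of Hbb-bs and Alas2. Over all 32851 windows of this length in the table, CCAAT was found in 21.3%, CACCC in 31.7%, GATA in 29.5% and TATAA in 11.8%. These matches of short motifs describe the sequences and show no binding.

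The transcripts of the paralogs are also alike. Of the runs of 50 bases in the longest coding transcript of Hba-a2, 86.9% occur in that of Hba-a1, and 67.5% of those of Hba-a1 occur in that of Hba-a2. Of the runs of Hbb-bs, 65.8% occur in Hbb-bt, and of those of Hbb-bt, 58.3% occur in that of Hbb-bs (GENCODE vM21). Reads from such runs were shared out between the paralogs by the authors' estimation, so the split between Hba-a1 and Hba-a2, and to a lesser degree between Hbb-bs and Hbb-bt, is uncertain, while their sums are firmer.

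The study gives an approximate number of reads generated for all samples alike and no total for each library. The depth of each library was approximated here from the smallest steps of the values of short genes, and came out below the study's number throughout. It came to 9.05M to 18.1M reads (M, mega) in 89 libraries and to 0.0776M reads in BAT (brown adipose tissue) estrus replicate 3, where 12048 genes were listed at 0, against 2404 to 4820 genes in the other libraries. At the median depth 1 read is worth about 0.1 FPKM of Hbb-bs, 0.0308 FPKM of Alas2 and 0.0138 FPKM of Slc4a1, and in the shallow BAT library about 20.5, 6.33 and 2.84 FPKM. The marker genes of each labelled tissue, such as Alb in liver, Umod in kidney and Cd79a in spleen, had their highest mean in that tissue, except Myh11 in vein, with rank 2 after aorta, and Adipoq in BAT, with rank 3. Some libraries stood apart in these markers. In 5 of the 6 aorta libraries the BAT markers (Ucp1, Cidea and Adipoq) summed to 3632 to 5694 FPKM, where BAT itself had 6825 to 8606, and the heart markers (Myh6, Tnnt2 and Nppa) to 849 to 1824 FPKM. Aorta estrus replicate 1 had 414 and 157 FPKM of these, and 10833 FPKM of the aorta markers (Myh11, Acta2 and Eln) against 952 to 1880 FPKM in the other 5. In duodenum estrus replicate 1 the stomach markers (Atp4a and Muc5ac) summed to 453 FPKM, against 0.12 to 0.33 FPKM in the other 5 libraries.

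In spleen, an erythropoietic organ of the adult mouse, all 6 genes reached their highest level. The 6 spleen libraries ranged from 10266 to 26292 FPKM of Hba-a1 with a median of 13845, and from 6741 to 18803 FPKM of Hbb-bs with a median of 10243. Hba-a2 ranged from 1677 to 12019 FPKM with a median of 6106, and Hbb-bt from 1043 to 2901 FPKM with a median of 1721. Alas2 ranged from 72.5 to 257 FPKM with a median of 120 FPKM, and Slc4a1 from 22.0 to 185 FPKM with a median of 77.3. The 4 adult globins together took up between 3.99% and 11.3% of the summed FPKM of a spleen library.

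With limma over the whole table, spleen was higher than the mean of the other 14 tissues for all 6 genes, where 22.1% of the 15226 genes tested were called higher (adjusted p at most 0.05 and a log2 fold change of at least 1). The log2 fold changes on the log2(FPKM + 1) scale were 6.34 (SE 0.57) for Hba-a1, 6.27 (SE 0.64) for Hba-a2, 6.11 (SE 0.57) for Hbb-bs and 6.64 (SE 0.59) for Hbb-bt. Alas2 differed by 5.03 (SE 0.33) and Slc4a1 by 5.73 (SE 0.13). The mean of Slc4a1 over all libraries reached 1 FPKM through spleen and kidney, and it was near 0 FPKM elsewhere. The fit pools the spread over all tissues, so the small SE of Slc4a1 does not measure its spread in spleen. There its highest library was 8.40 times the lowest. The highest adjusted p among the 6 was 9.21e-14. By size of the fold change the 6 genes held ranks between 19 and 108 of the genes tested.

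**Figure D1:**
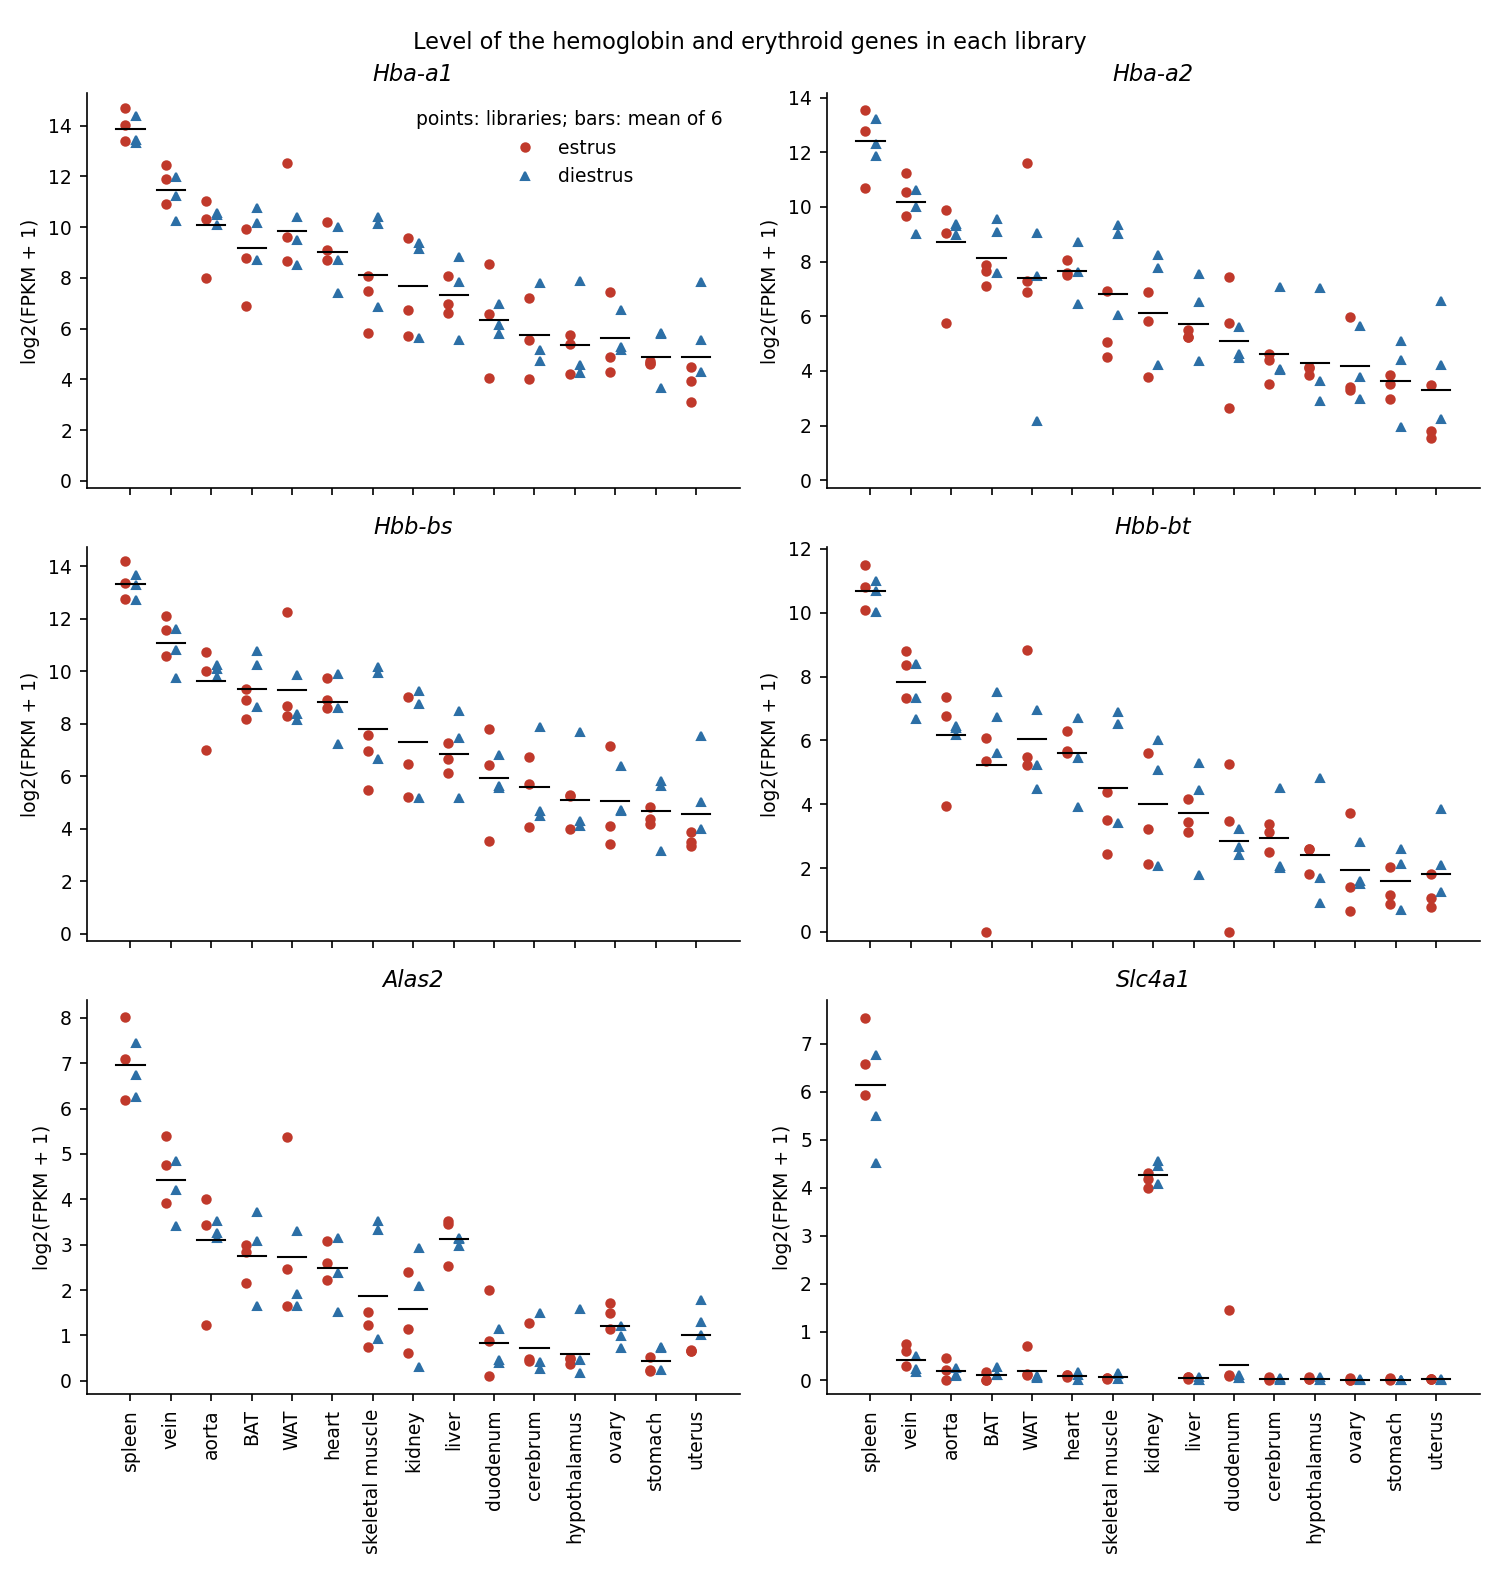
Levels of the 6 genes in 90 libraries, as log2(FPKM + 1), with tissues along the horizontal axis in the order of the mean of Hbb-bs. Circles are estrus libraries, triangles diestrus libraries and bars the mean of the 6 libraries of a tissue. Spleen stands highest in every panel, the globins and Alas2 fall off over the other tissues, and Slc4a1 stays near 0 outside spleen and kidney.

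Outside spleen the globins formed a long gradient. For Hbb-bs, vein followed spleen, with 861 to 4410 FPKM and a median of 2404, then aorta, with 128 to 1677 FPKM and a median of 1047. Without aorta estrus replicate 1 the aorta range was 867 to 1677 FPKM with a median of 1079, and without duodenum estrus replicate 1 the duodenum range was 45.5 to 221 FPKM. BAT, white adipose tissue (WAT), heart, skeletal muscle, kidney and liver came next, with medians of 556, 368, 433, 157, 256 and 126 FPKM. Duodenum (66.1), cerebrum (37.5), hypothalamus (27.7), ovary (24.9), stomach (23.2) and uterus (14.2 FPKM) had the lowest medians, and the single lowest library was stomach diestrus replicate 2 with 7.90 FPKM. The order is that of the mean log2 values, so that the medians of neighbours can be in another order.

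The order was firm only at its top. Neighbours in the order were compared by a two-sided exact permutation test of 6 libraries against 6, adjusted over 84 comparisons, whose smallest possible p is 0.00216. For Hba-a1, Hbb-bs, Hbb-bt and Alas2, every spleen library was above every vein library (adjusted p = 0.0364 each), by 2.43, 2.26, 2.87 and 2.53 on the log2 scale. For Hba-a2 the ranges of spleen and vein overlapped, with an adjusted p of 0.0519 in the same exact test, because spleen estrus replicate 1 had 1677 FPKM and the highest vein library 2449 FPKM. Vein and aorta, next in the order of each globin, did not differ beyond their spread (exact adjusted p of 0.141 to 0.212, and 0.263 to 0.42 without aorta estrus replicate 1), and neither did any lower pair of neighbours for the globins. A pair of tissues that lie far apart in the order was not tested.

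The spread of Hbb-bs and Hba-a1 within a tissue was narrowest in spleen. The highest library of Hbb-bs was 2.79 times the lowest in spleen, and between 5.13 times in vein and 26.3 times in skeletal muscle elsewhere, so that all 14 other tissues had a wider spread. For Hba-a1 the spread was 2.56 times in spleen and 4.54 times in vein to 29.8 times in uterus elsewhere. In WAT, estrus replicate 3 held 4838 FPKM of Hbb-bs against 280 to 935 FPKM in the other 5 libraries. In bulk tissue, more red cells and more globin RNA per cell cannot be told apart.

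The proportions of the globins varied less between tissues than their levels, with some libraries far off. The ratio of summed alpha to summed beta FPKM had medians between 1.30 in BAT and 1.81 in ovary, with 1.78 in spleen, and lay between 1.11 and 2.68 in the libraries outside spleen. Hbb-bt made up 0.159 of the level of Hbb-bs in spleen (range 0.154 to 0.172), above every library of vein (0.0907 to 0.117) and of heart (0.0893 to 0.121), while the 84 libraries of the other tissues had a median of 0.102 and ran from 0 to 0.295. After the mean of each tissue was taken off, Hbb-bs and Hba-a1 had a Pearson r of 0.98 over the 90 libraries, Hbb-bs and Hbb-bt of 0.90, and Hbb-bs and Hba-a2 of 0.88. These r values describe the table and carry no test, as the genes share libraries and the paralogs share reads.

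Alas2 followed the globins in most tissues and stood apart from them in 3. Per 1000 FPKM of Hbb-bs, the median of Alas2 was 12.1 FPKM in spleen (10.43 to 13.6), 9.23 in vein, 9.05 in aorta and 10.0 in heart, and between 7.21 and 12.7 in the other tissues apart from liver, ovary and uterus. In liver it was 56.7 (18.9 to 227), in uterus 49.3 (13.04 to 98.2) and in ovary 33.0 (16.0 to 189). The liver libraries held 9.98, 4.77 and 10.54 FPKM of Alas2 in estrus and 7.70, 7.92 and 6.79 FPKM in diestrus, a 2.21-fold range, while their Hbb-bs ranged from 34.9 to 359 FPKM. By mean log2 value liver followed spleen and vein for Alas2, though vein and liver did not differ beyond their spread (exact adjusted p = 0.0682), and without aorta estrus replicate 1 aorta came before liver. The other aminolevulinate synthase gene, Alas1, which is used outside the erythroid line, stood at 57.4 to 461 FPKM in liver, and was picked after the values were seen.

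Slc4a1 was a gene of spleen and kidney. Kidney held 18.69, 14.88 and 17.19 FPKM of Slc4a1 in estrus and 20.91, 22.62 and 15.86 FPKM in diestrus, the narrowest spread of any member in any tissue with values above 0 (1.52-fold). Those values did not move with the globins, as the kidney library with the lowest Hbb-bs (35.4 FPKM, diestrus replicate 2) had the highest Slc4a1. Every kidney library was above every vein library, the next tissue in order, which reached 0.67 FPKM at most (exact adjusted p = 0.0364), and spleen and kidney overlapped (exact adjusted p = 0.0519). Of the fixed red cell membrane list, Epb41, which codes for protein 4.1 and is used by many cell types, was at 58.7 to 74.9 FPKM in kidney.

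Outside these tissues Slc4a1 was low. Its medians were 0.32 FPKM in vein and at most 0.12 FPKM in the other 12 tissues, and in ovary and stomach 4 of 6 libraries each were at 0. Per 1000 FPKM of Hbb-bs, Slc4a1 had a median of 8.48 FPKM in spleen (3.27 to 9.84) but only 0.141 in vein (0.101 to 0.175) and 0.113 in aorta, so that spleen and the vessels, which did not overlap in this ratio, were closer in their Alas2 ratio. Among these tissues the highest value was that of duodenum estrus replicate 2, with 1.76 FPKM of Slc4a1 against 0.03 to 0.08 FPKM in the other duodenum libraries, and it was also the duodenum library with the most Hbb-bs (221 FPKM).

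**Figure D2:**
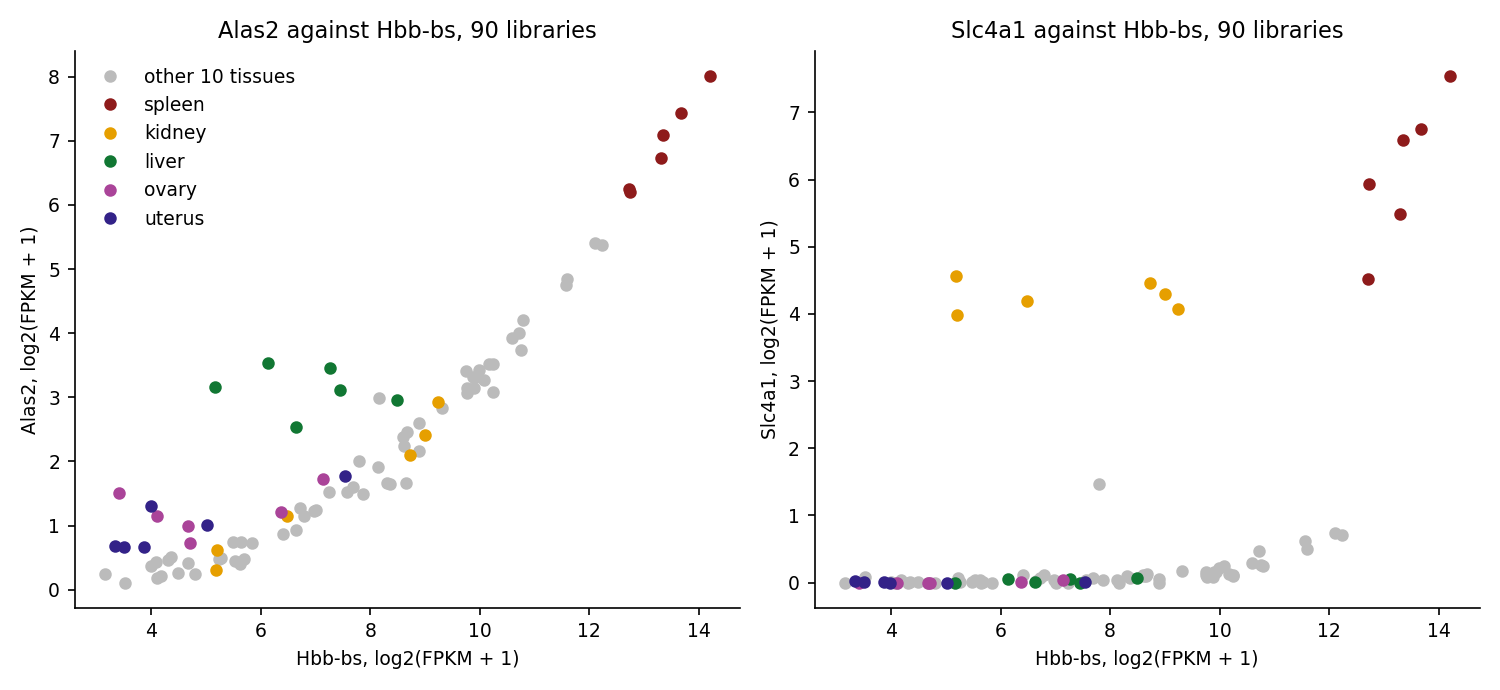
Alas2 (left) and Slc4a1 (right) against Hbb-bs in 90 libraries, as log2(FPKM + 1), with each point a library and 5 tissues in colour. Alas2 follows Hbb-bs except in liver, ovary and uterus, and Slc4a1 stays between 14.88 and 22.62 FPKM in kidney whatever the Hbb-bs level.

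To find the genes most like Hbb-bs in pattern, Pearson's r of log2(FPKM + 1) was ranked over 15226 genes. Over all 90 libraries Hba-a1, Hbb-bt, Hba-a2 and Alas2 held the first 4 ranks, with r from 0.99 to 0.91. The first genes outside the 6 were Fli1 (0.78), Abi3 (0.76), Gimap6 (0.76) and Irak3 (0.76), followed by Sh2b3, Marchf2, Tal1, Syne3, Irf4 and Pf4 with 0.72 to 0.75. Slc4a1 had an r of 0.49, with rank 430, and an r of 0.11 over the 84 libraries without spleen. Without spleen the nearest others were Acsl1 and Epas1 (both 0.79), then Ptprb, Tmem143, Cd300lg, C030006K11Rik, Pnpla2, Btnl9, Cd36 and Meox2 with 0.77 to 0.79. Among deviations from the tissue means Kbtbd11 had an r of 0.47 and Retsat of 0.46, and Alas2 had 0.83. The points share tissues and libraries, so these values carry no test.

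The comparison the study was made for is estrus against diestrus. None of the 6 genes was called in any tissue at an adjusted p of at most 0.05 and a log2 fold change of at least 1, by limma on log2(FPKM + 1) within the tissue. Of the 90 tests of 6 genes in 15 tissues, 73 had the mean of at least 1 FPKM that was asked for. Alas2 missed it in cerebrum, hypothalamus, duodenum and stomach, and Slc4a1 passed it in spleen and kidney only. The background was as bare, with 1 gene called in spleen (0.00798%), 1 in skeletal muscle (0.00936%) and 0 in the other 13 tissues. At an unadjusted p under 0.05, 1 of the 73 tests passed, while 7.84% of the tests of all genes in the 15 tissues did, from 2.87% in kidney to 20.8% in skeletal muscle. In 46 of the 73 tests the mean was lower in estrus and in 27 higher, against 46.5% higher over all genes and tissues. Without diestrus replicate 2, 19 of 74 tests had such a p, and without diestrus replicate 3, 8 of 73. The share of all genes was not computed with these libraries left out, so these counts have no background to be set against.

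The passing test was Hba-a2 in skeletal muscle, with 32.2, 21.9 and 120.6 FPKM in estrus and 652.6, 64.7 and 520.6 FPKM in diestrus. The difference was -2.64 on the log2 scale (SE 0.96, unadjusted p = 0.0281, adjusted p = 0.183). The phases overlapped through diestrus replicate 2, which was far below the other 2 diestrus libraries. Hbb-bs in the same libraries was 125.0, 43.8 and 188.7 FPKM in estrus and 1151, 99.6 and 978 FPKM in diestrus (-2.24, SE 0.97, adjusted p = 0.248). Hba-a1, Hbb-bt and Alas2 differed by -2.004, -2.16 and -1.43, and none of these differences was called.

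In skeletal muscle most genes tested had the higher mean in diestrus, with 29.6% of them higher in estrus. Myoglobin (Mb), the oxygen-binding globin of muscle fibres, was 3289, 1654 and 999 FPKM in estrus and 5628, 4288 and 4301 FPKM in diestrus. Its phases did not overlap, as for 26.2% of the genes tested there, and its difference was -1.42 (SE 0.39, adjusted p = 0.119). The part of this lean in the values of the 6 genes was not tested.

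In uterus the beta globin Hbb-bs was 13.6, 10.36 and 9.10 FPKM in estrus and 31.3, 14.9 and 185.6 FPKM in diestrus. The phases did not overlap, as for 7.91% of all genes tested in uterus, and the difference of -1.94 (SE 0.83) had an adjusted p of 0.897. Alas2 did not overlap either, with 0.58, 0.58 and 0.61 FPKM against 1.01, 1.46 and 2.42 FPKM (-0.69, SE 0.38, adjusted p = 0.897). Hba-a1 (-2.03), Hba-a2 (-2.06) and Hbb-bt (-1.19) overlapped. The single library diestrus replicate 3 held most of the globin, 518 FPKM of the 4 adult globins together against 27.5 to 97.7 FPKM in the other 5. Among markers of other blood cells, the 9 neutrophil genes summed to 301 to 1163 FPKM in estrus and to 11.7 to 309 FPKM in diestrus. These sums overlapped, and 0 of 9 genes were at 0 in all libraries. The 9 platelet and megakaryocyte genes summed to 11.57 to 131.79 FPKM in estrus and to 9.97 to 15.15 FPKM in diestrus, with overlap. The B cell and T cell genes summed to 1.83 to 4.35 and 5.25 to 12.68 FPKM, with overlap of the phases. The part of these cells in the globin values was not tested.

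In BAT, Hbb-bt differed by -2.82 (SE 1.61), with 65.9, 39.7 and 0 FPKM in estrus and 106.5, 47.8 and 183.1 FPKM in diestrus. The 0 is that of the shallow library, in which 1 read of Hbb-bt is worth 18.3 FPKM. In WAT the members leaned to estrus, Hba-a2 by 2.35 and the other globins and Alas2 by 0.80 to 0.96, with estrus replicate 3 the highest library for each. In vein the 4 globins and Alas2 leaned to estrus by 0.54 to 0.71, and Hbb-bs was 3031, 4410 and 1548 FPKM in estrus and 861, 1776 and 3099 FPKM in diestrus, with overlap.

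**Figure D3:**
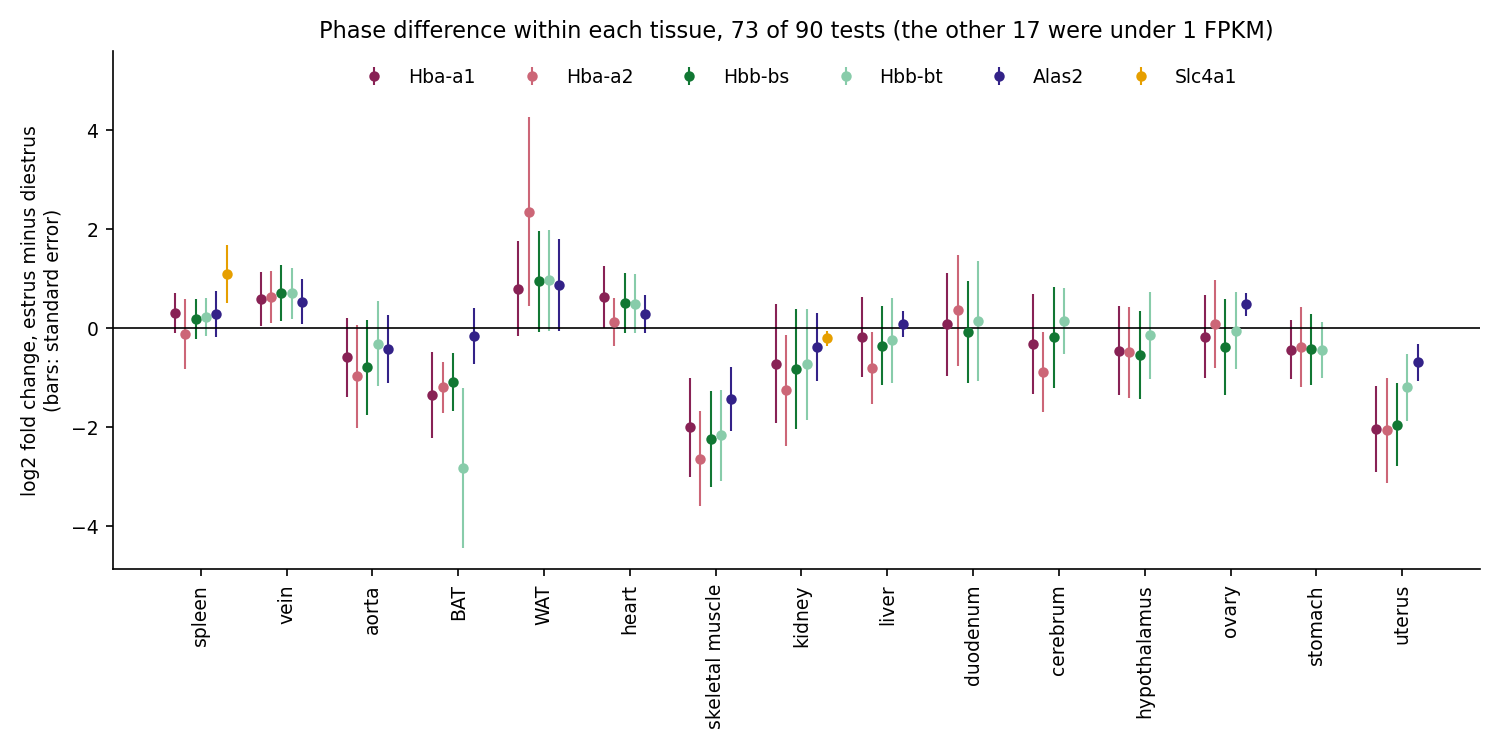
Log2 fold change between estrus and diestrus for the 73 tests, with tissues along the horizontal axis in the order of Hbb-bs, a colour for each gene and bars of 1 standard error. The lowest point is Hbb-bt in BAT at -2.82 and the highest Hba-a2 in WAT at 2.35, the globins of skeletal muscle lie between -2.004 and -2.64, and no difference was called.

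Over all tissues together, with tissue in the model, Hba-a1 differed by -0.39 (SE 0.27), Hba-a2 by -0.48 (SE 0.32), Hbb-bs by -0.43 (SE 0.28) and Hbb-bt by -0.36 (SE 0.29) on the log2 scale. Alas2 differed by -0.05 (SE 0.16) and Slc4a1 by 0.12 (SE 0.07), with an SE narrowed by the many tissues where Slc4a1 was near 0 FPKM. None of the 6 was called (adjusted p of 0.453 to 0.914), where 0.118% of genes were. This fit takes the 45 libraries of a phase as independent, although they come from 3 mice. Averaged over tissues into 6 values, 1 for each phase and number, the standard errors were 0.40, 0.43, 0.43, 0.38, 0.18 and 0.06 for the 6 genes in the order above, with adjusted p of 0.697 to 0.953. None of them differed between tissues in its phase difference either, by the F test of the interaction (adjusted p of 0.394 to 0.946), where 3.88% of genes did. At an unadjusted p under 0.05 there were 0 of 6 in each of these tests, against 12% and 19.2% of genes. Without diestrus replicate 2, 4 of 6 and 2 of 6 had such a p, with 0 called, and the share of all genes was not computed there.

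Within spleen, Slc4a1 was 59.8, 185.1 and 94.8 FPKM in estrus and 22.0, 107.2 and 43.8 FPKM in diestrus. It had the largest difference of the 6 genes, 1.09 (SE 0.59, adjusted p = 0.93), with overlap. The difference was 0.56 when diestrus replicate 1 was left out, 0.66 when estrus replicate 2 was and 1.68 when diestrus replicate 2 was. Alas2 was 72.5, 256.6 and 134.5 FPKM in estrus and 75.4, 172.3 and 105.3 FPKM in diestrus (0.29, SE 0.46). The globins differed by -0.12 to 0.31, each less than its standard error. Their median difference was -0.16 without estrus replicate 2, -0.05 without diestrus replicate 1 and 0.60 without estrus replicate 1. Estrus replicate 2 was the highest library for all 6 genes. The lowest was estrus replicate 1 for Hba-a2 and Alas2 and diestrus replicate 1 for the other 4.

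The other genes of the erythroid line were taken from fixed lists, and in spleen most of their members were higher in estrus without passing the test. Of the 17 genes for the red cell membrane and skeleton, 17 had the higher mean in estrus, with a median difference of 0.86, and 1 had an unadjusted p under 0.05. All genes tested in spleen had a median of -0.01, 47.6% higher in estrus and 3.51% at such a p. Epb41 differed by 0.10.

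The erythroid transcription factors were higher in 8 of 9, with a median of 0.63 and 0 of 9 at an unadjusted p under 0.05. The most abundant, Lmo2 (0.13), Lyl1 (0.0049) and Bcl11a (-0.14), which also serve other blood cells, differed little, and the median came from genes such as Klf1 (0.87) and Gata1 (0.63), the factors that drive globin transcription, which are named here after their values were seen. The 9 genes of heme synthesis were higher in 9 of 9 with a median of 0.32, among them Alad by 0.52. The red cell enzymes and chaperones were higher in 9 of 10 with a median of 0.49, with Car2, a carbonic anhydrase of red cells, at 0.86, Prdx2, a peroxidase, at 0.49 and Blvrb, a biliverdin reductase, at 0.30. The 5 genes for erythropoietin response and iron uptake that were tested were higher in 5 of 5 with a median of 0.47, with the mitochondrial iron carrier Slc25a37 at 0.47, the transferrin receptor Tfrc at 0.58 and the erythropoietin receptor Epor at 0.74.

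None of these listed genes was called in spleen or in any other tissue. Diestrus replicate 2 stood above the other 2 diestrus libraries for most of the erythroid genes named. Epor, for example, was 13.4, 19.9 and 16.0 FPKM in estrus and 5.15, 21.5 and 6.92 FPKM in diestrus. Without that library the median of the membrane list was 1.44 and that of the transcription factors 1.21, and without diestrus replicate 1 they were 0.49 and 0.28. Without diestrus replicate 3 the median of the transcription factors was 0.30. Heme synthesis had a median of 0.18 when estrus replicate 2 was left out, the lowest value, and of 0.60 when diestrus replicate 2 was. The first estrus and diestrus libraries, left out, gave 0.56 and 0.19. The enzymes and chaperones had 0.23 without diestrus replicate 1 and 0.94 without diestrus replicate 2, and erythropoietin response and iron uptake 0.30 without estrus replicate 2 and 0.74 without diestrus replicate 2. The medians of these 5 lists were above 0 without any 1 library. The genes of a list are not independent, and the mean of the membrane list had an SD of 0.68 between libraries of a phase. Of the other globin genes of the alpha and beta clusters, 1 of 3 tested was higher in estrus. This was the theta globin Hbq1b, the most abundant of the 3 (mean 11.9 FPKM), by 0.54. Hbb-bh2 (-0.40) and Hbb-b1 (-0.91) were lower, at means of only 3.1 and 1.7 FPKM. The median of the 3 was -0.40, and -0.59 to -0.23 with 1 library left out.

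Markers of other cells of the spleen were compared as well, and none of them was called between phases in spleen or in any other tissue. The 9 neutrophil genes summed to 455, 1491 and 449 FPKM in estrus and 186, 296 and 294 FPKM in diestrus, with 0 of 9 at 0 in all libraries. All 9 were higher in estrus, and 7 of them had an unadjusted p under 0.05, where 3.51% of all genes tested in spleen did. The median was 1.31, with S100a9, Ngp and S100a8 at 1.41, 1.40 and 1.46 (limma adjusted p = 0.93 each). Without estrus replicate 2 it was 0.71. The 9 platelet and megakaryocyte genes summed to 252, 292 and 164 FPKM against 100.9, 171 and 153 FPKM, with a median of 0.57 and Ppbp, Pf4 and Gp9 at 0.77, 0.68 and 0.75, and the median was 0.29 when estrus replicate 2 was left out and 0.36 when diestrus replicate 1 was. The 6 macrophage genes had a median of 0.26, the 10 proliferation genes of 0.15, the 5 B cell genes of -0.05 and the 5 T cell genes of -0.20. With estrus replicate 2 left out these were 0.065 for macrophages, 0.14 for proliferation, 0.03 for B cells and -0.12 for T cells. With diestrus replicate 1 left out macrophages had 0.12 and proliferation 0.017, and proliferation had 0.31 with diestrus replicate 2 left out. The part of the cell make-up of each spleen sample in the erythroid values was not tested.

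**Figure D4:**
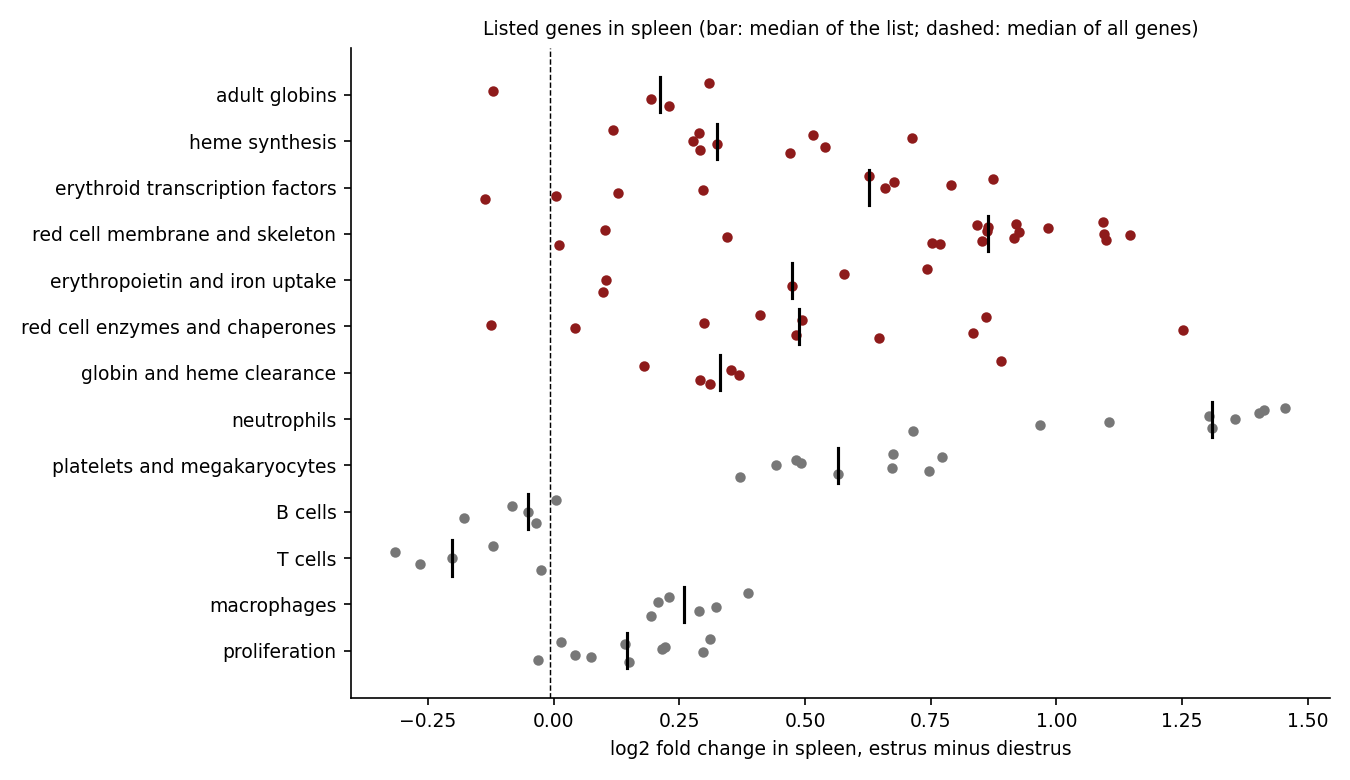
Log2 fold change in spleen, estrus minus diestrus, of the genes of 13 fixed lists, with each point a gene, a bar for the median of the list and a dashed line for the median of all genes (-0.01). Erythroid lists are in red and other cell types in grey, and the red cell membrane list lies above the line in 17 of 17 genes.

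Against the other tissues, the erythroid lists were high in spleen in unequal measure, where 22.1% of all genes were called higher and the median over all genes was 0.06. The transcription factors were called higher in 8 of 8 tested genes (median 3.76), the enzymes and chaperones in 7 of 9 (median 2.46) and the membrane genes in 9 of 15 (median 1.41). Heme synthesis was called higher in 4 of 9 and lower in 1 (median 0.62), and erythropoietin response and iron uptake higher in 2 of 5 (median 0.94). The lists of neutrophils (6 of 6), platelets and megakaryocytes (5 of 6), macrophages (6 of 6), B cells (5 of 5), T cells (5 of 5) and proliferation (10 of 10) were also called higher in spleen. Only genes whose mean over all libraries reached 1 FPKM were tested, and a gene can reach it through spleen alone. The tested genes were 8 of 9 transcription factors, 15 of 17 membrane genes, 6 of 9 neutrophil genes and 6 of 9 platelet and megakaryocyte genes. These counts are therefore partly set by the filter.

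The libraries of a replicate number were set side by side over the tissues, although the labels do not say that a number marks a mouse. Diestrus replicate 3 was the highest of the 3 diestrus libraries in 11 of 15 tissues for each of the 4 globins, and in 9 of 15 for Alas2. Its Hbb-bs lay above the mean of the tissue in 12 of 15 tissues, by 1.22 on the log2 scale on average. Diestrus replicate 2 was the lowest for Hbb-bs in 10 of 15 tissues and lay 0.73 below the mean of the tissue on average. No estrus number was the highest of its phase in more than 7 of 15 tissues for any globin, and their Hbb-bs lay between 0.09 and 0.33 below the tissue means on average.

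The share of Hba-a2 set estrus replicate 1 apart. The ratio of Hba-a2 to Hba-a1 had a median of 0.161 over the 15 libraries of that number and was under 0.25 in 10 of them, against medians of 0.417 to 0.530 for the 5 other combinations of phase and number. In spleen, for example, estrus replicate 1 had 1677 FPKM of Hba-a2 beside 10719 FPKM of Hba-a1, while its Hbb-bs of 6824 FPKM was close to that of diestrus replicate 1 (6741 FPKM). In WAT diestrus replicate 3, Hba-a2 was 3.47 FPKM beside 721 FPKM of Hba-a1, a ratio of 0.00481. The transcripts of the 2 genes share most of their runs of 50 bases, and how the reads were split between them was not tested.

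**Figure D5:**
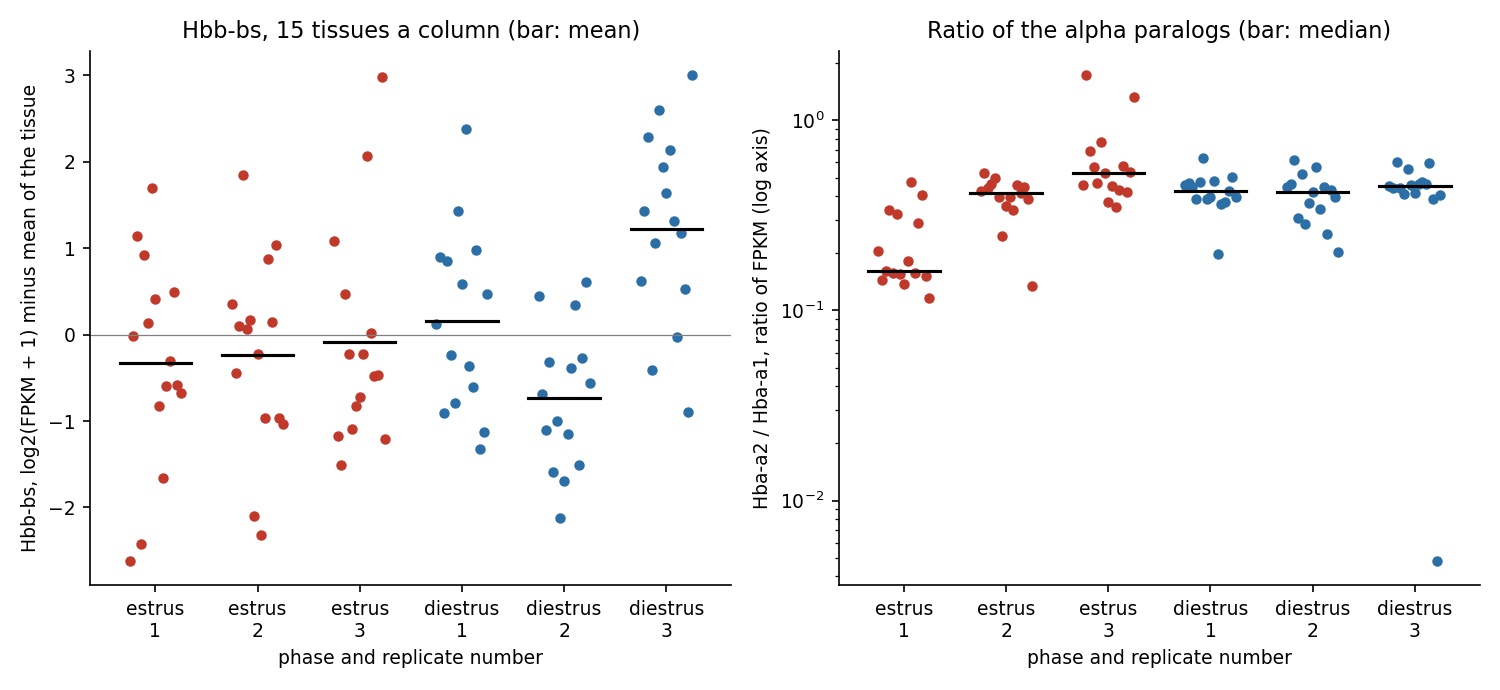
Hbb-bs as the deviation of log2(FPKM + 1) from the mean of the tissue (left) and the ratio of Hba-a2 to Hba-a1 on a log axis (right), for each phase and replicate number, with a point for each of 15 tissues and bars for the mean (left) and the median (right). Diestrus replicate 3 lies above the tissue mean in 12 of 15 tissues, and estrus replicate 1 has the lowest median ratio, 0.161.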

How the data were processed

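The authors filtered their reads by SOAPnuke, mapped them on GRCm38.p5 with Bowtie2 2.2.5, estimated abundance with RSEM 1.2.8 (versions from the submitters' processing notes), and deposited FPKM for 20414 genes in 90 libraries. Symbols came from RefSeq (GRCm38.p6) by identifier, for 20265 genes. Promoters of 5 of the 6 genes were in the RefSeq table.

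Here, log2(FPKM + 1) was tested, for genes whose mean reached 1 FPKM, with limma 3.58.1 (R 4.3.3, intensity trend, Benjamini-Hochberg), within each tissue, over all libraries with tissue as a covariate, as an interaction, and for spleen against the other tissues. This scale understates changes of low genes. Within a tissue, p-values measure the spread between 3 libraries per group. The fits over tissues and the permutation tests reuse the 3 mice of each phase as if independent. The fits were tested on simulated data with independent libraries, which cannot show the effect of mice shared between tissues. Approximated reads were whole, to within 0.2 reads, for 48.1% to 74.1% of values, so no count test was run. Neighbouring tissues were compared by exact permutation (Python 3.11.15, numpy 2.4.6, pandas 2.3.3, scipy 1.17.1), and matplotlib 3.10.9 drew the plots. The genes named by rule are the 6, the 3 of each list most abundant in spleen, and the 10 most like Hbb-bs. The tissue markers are fixed lists. Alas1, Klf1, Gata1, Mb, Ngb, Hp, Hpx, Hba-x, Hbb-bh1 and Hbb-y are named outside this rule. The members and lists were chosen with earlier results of these data known. Alternatives covered the pseudocount, filter, scaling, trend, summed paralogs, replicate block and left-out libraries. Same-numbered libraries of the 2 phases deviated together (r over 0.1) in 9 of 45 pairs, and in 0 of 15 tissues for all pairs, so the numbers were not used as pairs. Some genes that this rule picks are not reported here.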

Additional observations from a re-analysis of the deposited data

Results flagged for a closer look

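Of 90 sets of 6 libraries, 1 for each gene and tissue, 14 had a highest or lowest library far from the other 5 by Dixon's ratio on the log2 scale, at the 95% critical value. Chance flags about 1 in 20 sets, and sets of the same libraries are not independent.

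Aorta estrus replicate 1 was low for 5 genes at once, with 256.55 FPKM of Hba-a1 (the others had 1081 to 2071), 52.98 of Hba-a2 (497 to 951), 128.31 of Hbb-bs (867 to 1677), 14.4 of Hbb-bt (71.7 to 163.2) and 1.36 of Alas2 (7.89 to 15.1). The same library had 10833 FPKM of the aorta markers (the others had 952 to 1880), 414 of the BAT markers (3632 to 5694) and 157 of the heart markers (849 to 1824), and the part of this in the globin values was not tested. Hypothalamus diestrus replicate 3 was high for 3 genes, with 131.34 FPKM of Hba-a2 (6.49 to 16.8), 206.04 of Hbb-bs (15.0 to 37.5) and 2.02 of Alas2 (0.13 to 0.41). Cerebrum diestrus replicate 3 was high for Hba-a2, at 134.12 FPKM (10.39 to 23.5). BAT estrus replicate 3, the shallowest library, was at 0 for Hbb-bt (39.7 to 183.1 FPKM).

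Slc4a1 stood out at 1.76 FPKM in duodenum estrus replicate 2 (0.03 to 0.08) and at 0.63 FPKM in WAT estrus replicate 3 (0.03 to 0.09), which was also the WAT library with the most Hbb-bs. In ovary estrus replicate 3 and in stomach estrus replicate 3 it stood at 0.03 FPKM (0 to 0.01), which is about the value of a few reads.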

How the results depend on the processing

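The counts of genes called between phases (0 within tissues, 0 over all tissues, 0 in the interaction) and in spleen against the other tissues (6) were the same under each alternative run, and with summed paralogs spleen was called in 4 of 4 rows. The 18 single differences followed kept their direction and side of the threshold in all 278 repeats. They were those of the members in skeletal muscle and uterus, of Slc4a1 in spleen and kidney, and of spleen against the other tissues. Most of these were large, and the smaller differences elsewhere were not followed. The median difference of the adult globins in spleen, 0.21, turned to -0.16 without estrus replicate 2 and to -0.05 without diestrus replicate 1. It rose to 0.60 without estrus replicate 1. Neighbouring tissues that differed numbered 5 of 84, 9 after rescaling to the sum of the other genes, and 0 to 0 when a replicate number of a phase was left out, where the smallest exact p of 0.00794 would have to be reached by 14 comparisons to pass. With the replicate number as a block 0 members were called within tissues, and 9 tests instead of 1 had an unadjusted p under 0.05. The pairing was not used, since the labels do not say that a number ties libraries of the 2 phases together, and the block changed no call. Without diestrus replicate 2 such a p was reached in 19 tests within tissues, for 4 of 6 genes over all tissues and for 2 of 6 in the interaction. Without diestrus replicate 3 it was reached in 8 tests within tissues, and 0 were called in either case. The share of all genes at such a p was not computed for the block or for left-out libraries. With 3 libraries against 3 an exact test of a single gene cannot go below 0.1. Without aorta or duodenum estrus replicate 1, alternatives chosen after seeing the data, 5 neighbours differed.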

Other observations

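The other globin genes of the alpha and beta clusters, of which 8 of 9 were in the table, were low. In spleen Hbb-bh2 was at 1.71 to 4.61 FPKM and Hbb-b1 at 0 to 3.57 FPKM. The theta globin Hbq1b was at 5.08 to 22.9 FPKM in spleen, and the embryonic genes Hba-x and Hbb-bh1 reached 0.43 and 0.79 FPKM in spleen and were at 0 in kidney, liver, heart and uterus. Hbb-y, the other embryonic beta gene, was at 0.1 to 0.32 FPKM in hypothalamus and at 0 in kidney, liver and heart. These genes resemble the abundant adult globins in sequence, and such small values were not checked for shared reads.

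The globins outside the red cell line had their own tissues. Myoglobin (Mb) was at 15538 to 17462 FPKM in heart and 999 to 5628 FPKM in skeletal muscle, neuroglobin (Ngb) at 36.3 to 46.1 FPKM in hypothalamus, and cytoglobin (Cygb) at 53.1 to 81.0 FPKM in ovary, 46.2 to 65.4 FPKM in heart and 49.2 to 56.0 FPKM in hypothalamus. In skeletal muscle Cygb was 8.48, 8.73 and 7.92 FPKM in estrus and 11.7, 10.2 and 11.6 FPKM in diestrus (-0.37, SE 0.08, limma adjusted p = 0.0991). Its phases did not overlap, as for 26.2% of the genes tested there, of which 29.6% had the higher mean in estrus.

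Genes that clear hemoglobin and heme had different tissues. Haptoglobin (Hp) was at 669 to 2991 FPKM and hemopexin (Hpx) at 1978 to 4654 FPKM in liver. Heme oxygenase 1 (Hmox1) was at 64.6 to 189 FPKM in spleen and 35.5 to 80.2 FPKM in ovary, Spic, the factor of red pulp macrophages, at 38.2 to 76.0 FPKM in spleen, and the iron exporter Slc40a1 at 24.2 to 75.7 FPKM in spleen, 31.1 to 49.5 FPKM in liver and 6.56 to 281 FPKM in uterus. Of the 6 genes of this list tested in spleen, 6 were higher in estrus, with a median of 0.33, 1 at an unadjusted p under 0.05 and 0 called by limma. Without estrus replicate 2 the median was 0.079 and 4 of 6 were higher.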
